A study of Arabidopsis thaliana with 2 samples.

Results

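The sites of PRR5 (PSEUDO-RESPONSE REGULATOR 5) in Arabidopsis thaliana were mapped by ChIP-seq, in which DNA bound by a protein is pulled down with an antibody and sequenced, and the regions described here are those centred in genes of long noncoding RNAs (lncRNAs). Members were the rows of the deposited region list whose midpoint lay inside a gene of biotype lncRNA in the RefSeq table of TAIR10.1, and 414 of the 8983 regions met this rule (4.61%, 95% Clopper-Pearson interval 4.18 to 5.06). They were split by whether any base of the region fell in a protein-coding gene: 308 lay outside protein-coding genes, and 106 (25.6% of members, 21.5 to 30.1) overlapped one. Of the other 8569 regions, 3757 lay outside protein-coding genes and 4812 overlapped one. Overlap was thus less common among members than in the rest of the list. Both libraries came from whole prr5 mutant plants with FLAG-PRR5-GFP, a PRR5 protein with FLAG and GFP tags, driven by the PRR5 promoter. The plants were 18 days old, had grown in 12 h of light and 12 h of darkness on MS medium with sucrose, and were harvested at 10 h of the light phase. The anti-GFP ChIP and its input made up 2 groups of 1 library each. With no replicate, every value describes this 1 list, and differences between classes of regions are descriptions with counting intervals and no test.

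PRR5 belongs to the family of clock proteins that repress transcription in turn through the day, and it is known to work with corepressors of the TOPLESS family. LncRNAs are transcripts without a long protein-coding frame, and in plants some arise between genes while others run over a coding gene or opposite to it. In Arabidopsis some lncRNAs are known to act in flowering and in the response to cold. A ChIP peak is double-stranded DNA, so a region inside both an lncRNA gene and a protein-coding gene cannot be assigned to either, and the gene table used here gives no strand. Positions below are on TAIR9 as in the deposited list, genes are named from the RefSeq table, and distances to genes are given in classes because the table is of another release.

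Outside protein-coding genes, region centres were far denser in the sequence of lncRNA genes than in the remaining sequence. The lncRNA gene space outside protein-coding genes, 0.889 Mb, held 315 centres, or 354 per Mb (95% Poisson interval 316 to 396). The remaining space outside both kinds of gene, 53.8 Mb, held 4036 centres, or 75 per Mb (72.7 to 77.4), and protein-coding genes away from lncRNA genes held 71.3 per Mb (69.3 to 73.4). These intervals cover counting error only and treat regions as independent. The comparison was also made at like distances from protein-coding genes. Between 500 bp and 1 kb from such a gene the density was 407 per Mb (329.7 to 496) in lncRNA genes and 113 (106 to 121) elsewhere, and from 1 to 3 kb it was 505 (424 to 597) and 125 (119 to 131). Within 500 bp it was 187 (139.8 to 244) against 66.3 (62.3 to 70.5). Beyond 3 kb it was 297 (199 to 427) against 26.3 (23.9 to 28.8). In each of the 4 distance classes the intervals of lncRNA genes and of other sequence did not overlap. The other sequence was all that lay outside both kinds of gene, and was matched to lncRNA genes by distance class alone. Beyond 3 kb it covered 17 Mb, against 0.0976 Mb in lncRNA genes. How far the contrasts rest on other properties of the sequence, such as how well reads can be placed in it, was not tested.

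The density fell at the edge of the lncRNA genes. Outside protein-coding genes, the first 500 bp beside an lncRNA gene held 56.3 centres per Mb (46.3 to 67.9), less than the 106 per Mb (90.1 to 124) from 500 to 1000 bp and the 118 per Mb (104 to 133) from 1000 to 2000 bp. More than 5000 bp away it was 68.5 per Mb (66.1 to 71.1). In the whole list no 2 region centres lay within 500 bp of each other, and the part of this spacing in the low value beside lncRNA genes was not tested. The same drop was seen for regions at an FDR of at most 5% (64.4% of the whole list), the false discovery rate that the authors gave each region in the ChIP relative to the input: 231 per Mb (200 to 264) inside lncRNA genes, 39.8 (31.4 to 49.7) in the first 500 bp beside them and 42.8 (40.9 to 44.8) beyond 5000 bp.

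**Figure D1:**
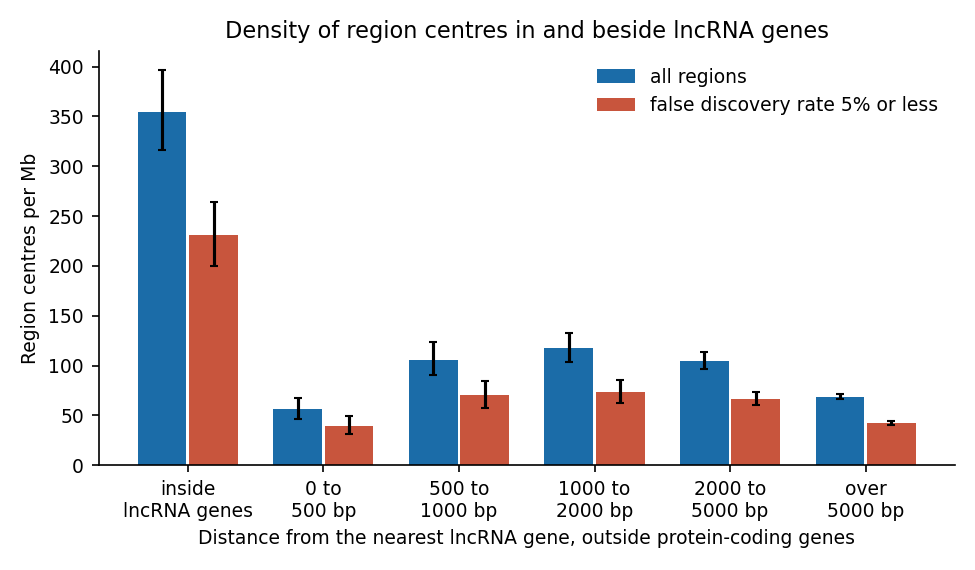
Density of region centres (per Mb, vertical axis) outside protein-coding genes, inside lncRNA genes and in steps of distance from the nearest lncRNA gene. Bars are densities of all regions and of regions at an FDR of at most 5%, with 95% Poisson intervals; the bar inside lncRNA genes, 354 per Mb, stands above all others and the next one, 56.3 per Mb, is the lowest.

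Where lncRNA and protein-coding genes overlap, the density was closer to that of protein-coding genes. The 0.913 Mb shared by both kinds of gene held 99 centres, or 108 per Mb (88.1 to 132), against 71.3 in the rest of the protein-coding space. For regions with at least 1000 reads (16.2% of the whole list) the densities were 38.3 per Mb (26.7 to 53.3) and 13.9 (13.0 to 14.9). For lncRNA gene space outside protein-coding genes the same density was 59.6 per Mb (44.6 to 78.0), against 8.91 (8.13 to 9.74) in the remaining space.

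Counted by gene, 459 of the 3480 lncRNA genes on chromosomes 1 to 5 held at least 1 region centre (13.2%, 12.1 to 14.4), and 4480 of 27432 protein-coding genes did (16.3%, 15.9 to 16.8). LncRNA genes are much shorter, with a median of 343 bp against 2078 bp. A region at an FDR of at most 5% lay in 309 lncRNA genes (8.88%, 7.95 to 9.87), against 3014 protein-coding genes (11%, 10.6 to 11.4). Of the 2060 lncRNA genes apart from protein-coding genes, 339 held a centre (16.5%, 14.9 to 18.1), and of the 1420 that overlap one, 120 did (8.45%, 7.06 to 10.0). Among the genes apart from coding genes the share was 14.0% (11.8 to 16.4) under 300 bp, 18.0% (15.4 to 20.8) from 300 to under 500 bp, 20.1% (15.8 to 25.1) from 500 to under 1000 bp and 14.8% (4.19 to 33.7) in the 27 genes of 1000 bp or more. Among those overlapping a coding gene it went from 3.46% (1.95 to 5.64) under 300 bp to 20.3% (15.8 to 25.4) at 1000 bp or more. These shares are per gene. Per Mb of gene length, the overlapping genes held 142, 155, 111 and 95.9 centres from the shortest to the longest class. The genes apart from coding genes held 578, 471, 319 and 86.1. A region centred in 2 overlapping lncRNA genes counts in both here, as does their shared length, so these values are not comparable with the densities above.

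**Figure D2:**
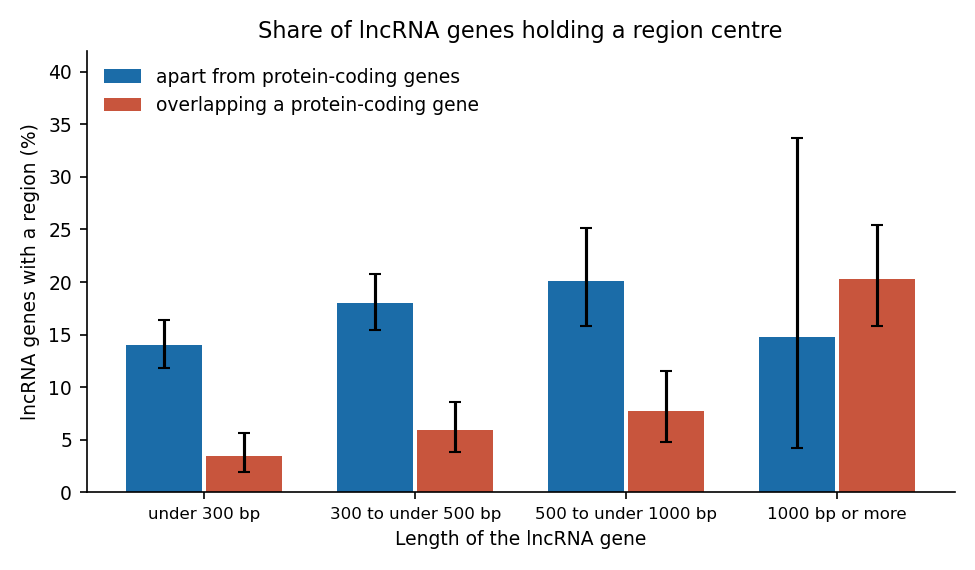
Share of lncRNA genes with a region centre (%, vertical axis) by gene length, for lncRNA genes apart from and overlapping protein-coding genes, with 95% Clopper-Pearson intervals. In genes under 1000 bp the overlapping class lies below the other (3.46% against 14.0% under 300 bp), and at 1000 bp or more it reaches 20.3%. Shares are per gene and not per Mb of gene length.

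Nearly all lncRNA genes with a region held a single one. There were 456 with 1 region, 3 with 2 and none with more. The 3 were long. AT1G26208 (5514 bp), which overlaps SOFL1 (AT1G26210) and AT1G26220, held 1114 and 229 reads in its regions. AT2G30362 (2735 bp), which overlaps SIP4 (AT2G30360), held 797 and 431, and AT3G05932 (3223 bp), which overlaps GLP8 (AT3G05930) and AT3G05935, held 169 and 129. In 48 members the centre lay in 2 overlapping lncRNA genes, 47 of these outside protein-coding genes. Of all members, 277 (66.9%) lay wholly within the lncRNA gene, and 189 (45.7%, 40.8 to 50.6) were centred in the outer 50% of its length, counting both ends, with an interval that included 50%. Of the 308 members outside protein-coding genes 42.9% (37.3 to 48.6) were centred there, an interval below 50%, and of the 106 overlapping members 53.8% (43.8 to 63.5). By length of the lncRNA gene, the interval lay below 50% in genes of 500 to under 1000 bp (37.5%, 26.9 to 49) and included it in the other 3 classes.

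Members held more reads than the rest of the list, most of all those that overlap a protein-coding gene. The FDR was at most 5% in 282 of 414 members (68.1%, 63.4 to 72.6), beside 64.4% of the whole list. The median member held 266.5 reads (interval of the median 204 to 332, quartiles 74.2 and 796.75), and the median of the other 8569 regions was 193 (185 to 201). At least 1000 reads lay in 88 members (21.3%, 17.4 to 25.5), beside 16.2% of the whole list. Members were 4.61% of regions and held 7.02% of all reads in regions, or 6.53% without the strongest one. Of their reads, 27.5% lay in the strongest 10 and 7.41% in the strongest alone. Among the 100 regions of the list with the most reads 14 were members, 6 outside protein-coding genes and 8 overlapping one.

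In the 106 members overlapping a protein-coding gene the median was 653.5 reads (482 to 862), against 265 (252 to 281) in the 4812 regions that overlap such a gene without being centred in an lncRNA gene. Of these members 79.2% (70.3 to 86.5) had an FDR of at most 5%, against 66.6% (65.2 to 67.9), and 34.0% (25 to 43.8) held at least 1000 reads, against 20% (18.8 to 21.1). In the 308 members outside protein-coding genes the median was 185 reads (147 to 256), against 121 (113 to 129) in the 3757 other regions outside them. At least 1000 reads lay in 16.9% (12.9 to 21.5) of them, against 10.7% (9.75 to 11.8). Their shares at an FDR of at most 5% had overlapping intervals, 64.3% (58.7 to 69.6) and 61.3% (59.7 to 62.9).

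**Figure D3:**
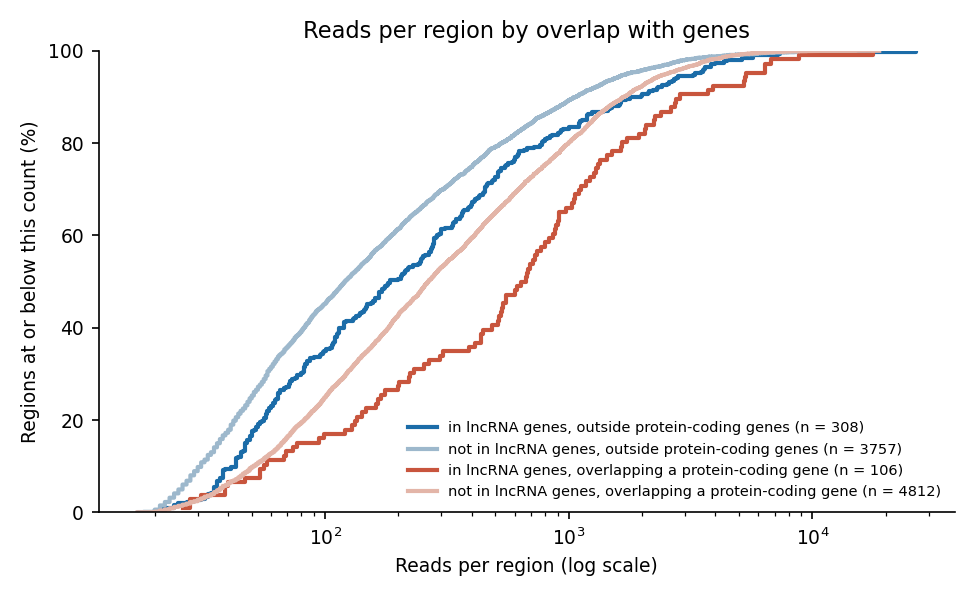
Cumulative share of regions (%, vertical axis) by reads per region (horizontal axis, log scale) for regions in and not in lncRNA genes, outside and overlapping protein-coding genes. Each curve of regions in lncRNA genes lies to the right of its counterpart over most of its length, with medians of 185 against 121 reads outside and 653.5 against 265 overlapping.

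The reads of overlapping members had higher medians in longer lncRNA genes, with intervals that overlapped. In lncRNA genes of 1000 bp or more, 53 overlapping members had a median of 905 reads (539 to 1319), and 88.7% of them (77.0 to 95.7) had an FDR of at most 5%. In lncRNA genes under 300 bp, 16 such members had a median of 134 reads (31 to 555), and 56.2% (29.9 to 80.2) reached that rate. The 20 in genes of 300 to under 500 bp had a median of 216 reads (133 to 887), and the 17 in genes of 500 to under 1000 bp had 724 (525 to 1272). The intervals of the medians and of the FDR shares overlapped between the shortest and the longest class. Outside protein-coding genes the medians were 136 reads (101 to 185) under 300 bp, 276 (119 to 337) from 300 to under 500 bp, 253 (142 to 453) from 500 to under 1000 bp and 248 (132 to 513) above, and their intervals overlapped.

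Members and other regions were spread along protein-coding genes in shares whose intervals overlapped, while members had the higher median reads away from the gene ends. Of the 99 members centred in a protein-coding gene, 25.3% lay within 200 bp of its nearer end, 37.4% from 200 to 500 bp and 37.4% deeper. For the other 4533 regions centred in such genes the shares were 22.8%, 37.3% and 39.9%. The median reads of members were 221, 713 and 905 in these 3 bands, and those of other regions 235.5, 166 and 406. The difference in median reads was seen beyond 200 bp from the gene end and not next to it. No intervals were computed for these medians, the members' bands held only 25, 37 and 37 regions, and the difference was not tested.

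Outside protein-coding genes, the median reads of members and of other regions were highest within 500 bp of a coding gene. Of the 308, 46 lay within 500 bp of a protein-coding gene, 97 from 500 bp to 1 kb, 136 from 1 to 3 kb and 29 beyond. The medians were 403 reads (251 to 854), 161 (109 to 253), 153.5 (114 to 273) and 174 (65 to 369). Other regions outside genes had 424 (374 to 497), 87 (80 to 101), 106 (98 to 114) and 86 (71 to 108). The members' interval within 500 bp overlapped their intervals farther away, while that of other regions lay above theirs. Within 500 bp of a gene and beyond 3 kb the intervals of the 2 classes overlapped. From 500 bp to 3 kb those of members lay above those of other regions or just touched them. The share with at least 1000 reads from 1 to 3 kb was 14.0% (8.63 to 21.0) in members and 6.47% (5.32 to 7.78) in others.

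**Figure D4:**
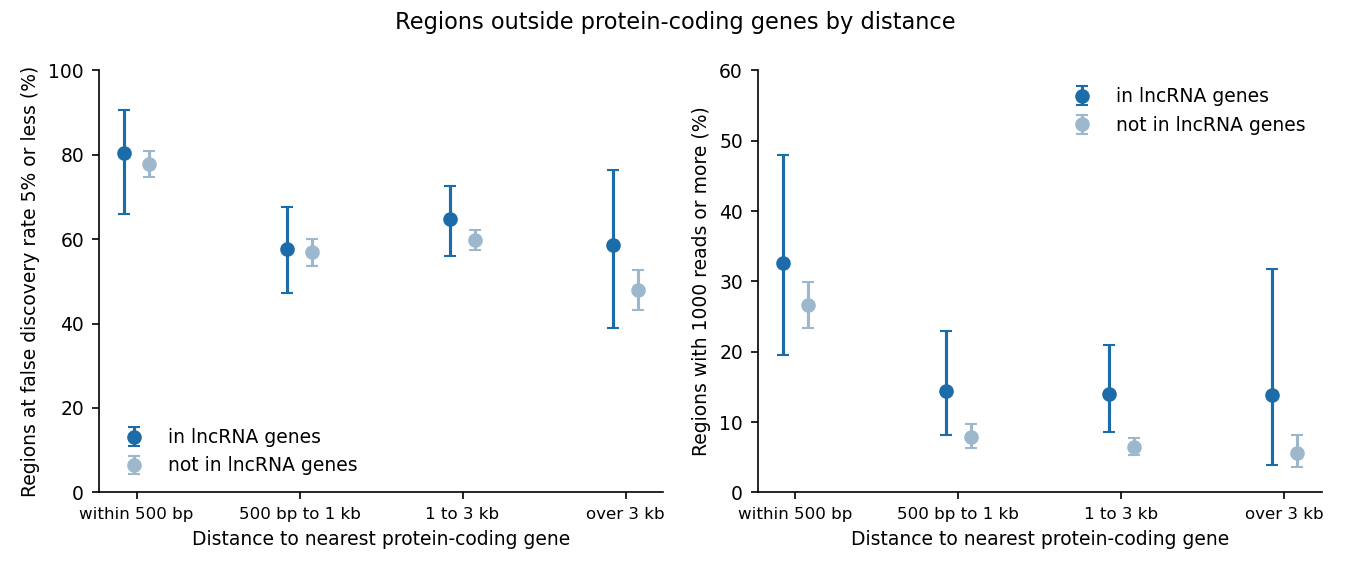
Share of regions outside protein-coding genes at an FDR of at most 5% (left, %) and with at least 1000 reads (right, %), by distance to the nearest protein-coding gene, in and not in lncRNA genes, with 95% Clopper-Pearson intervals. Within 500 bp both classes are highest (80.4% and 77.8% on the left), and from 1 to 3 kb members exceed other regions on the right (14.0% against 6.47%).

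Regions were narrow. Members had a median length of 143 bp (quartiles 130 and 170.75), from 50 to 912 bp, against 151 bp (129 and 196) in the rest of the list. Only 9 members were longer than 500 bp, 8 of them overlapping a protein-coding gene, and the rest of the list held 431. By chromosome, members were 3.64% (2.79 to 4.66) of the regions on chromosome 3 and 5.22% (4.37 to 6.18) of those on chromosome 1, with the other chromosomes between.

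The strongest member was also the region with the most reads in the whole list. It lay in AT5G03755, an lncRNA gene of 391 bp, at chromosome 5 from 8359855 to 8360011, with 26570 reads (95% Poisson interval 26251.5 to 26891.4) and an FDR of 0. The only protein-coding gene within 3 kb was PRR5 (AT5G24470), the gene of the tagged protein, 1 to 3 kb away. The next region of the list, with 5940 reads, was centred 1815 bp from it. The plants also carried the PRR5 promoter in a transgene, so reads from the native locus and from the transgene cannot be told apart here. The value was 3.62 times that of the second member outside protein-coding genes.

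The other members outside protein-coding genes with the most reads held between 3851 and 7344 reads. AT5G09045, with a region at chromosome 5 from 24909609 to 24909781, held 7344 reads (7177.0 to 7513.9) and lay within 500 bp of ARF2 (AT5G62000), which encodes a repressive auxin response factor. AT1G04453, with a region at chromosome 1 from 1953800 to 1953947, held 7237 reads (7071.2 to 7405.7) at an FDR of 0. Its neighbours within 1 kb were TPS7 (AT1G06410), of the trehalose phosphate synthase family, and ARA-2 (AT1G06400), which encodes a Rab GTPase. The intervals of these 2 overlapped, so their order rests on less than the counting error.

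AT1G09307 held 5719 reads (5571.7 to 5869.2) at chromosome 1 from 27276866 to 27277015, within 500 bp of JAZ6 (AT1G72450), a repressor of jasmonate signalling. AT4G07865 held 5705 reads (5557.9 to 5855.0) at chromosome 4 from 13749405 to 13749551, near AT4G27510 and ENODL2 (AT4G27520), of the early nodulin-like family, and the intervals of these 2 members overlapped. AT2G09445 held 5127 reads (4987.6 to 5269.3) at chromosome 2 from 18004889 to 18004981, with INT1 (AT2G43330), a vacuolar inositol transporter gene, 500 bp to 1 kb away. Some strong members were far from coding genes. AT5G01475, with 4479 reads (4348.8 to 4612.1) at chromosome 5 from 2614797 to 2614924, had only AT5G08139 within 3 kb, and AT1G08673, with 4350 reads (4221.7 to 4481.2) at chromosome 1 from 23895750 to 23895879, had no protein-coding gene within 3 kb, AT1G64380 being the nearest.

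AT1G09733 held 3983 reads (3860.3 to 4108.7) at chromosome 1 from 29098925 to 29099133, within 1 kb of PBC2 (AT1G77440), a proteasome subunit gene, and NAC032 (AT1G77450), a NAC transcription factor gene. By FDR it ranked at 701 in the whole list. AT3G03375 held 3851 reads (3730.3 to 3974.6) at chromosome 3 from 5731096 to 5731263, within 500 bp of TPR2 (AT3G16830), which encodes a corepressor of the TOPLESS family. TPL (AT1G15750), which encodes TOPLESS itself, lay within 500 bp of the member in AT1G05197, with 3286 reads at chromosome 1 from 5421281 to 5421470. TPL was outside the rule for named genes and was chosen after its value was seen.

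**Figure D5:**
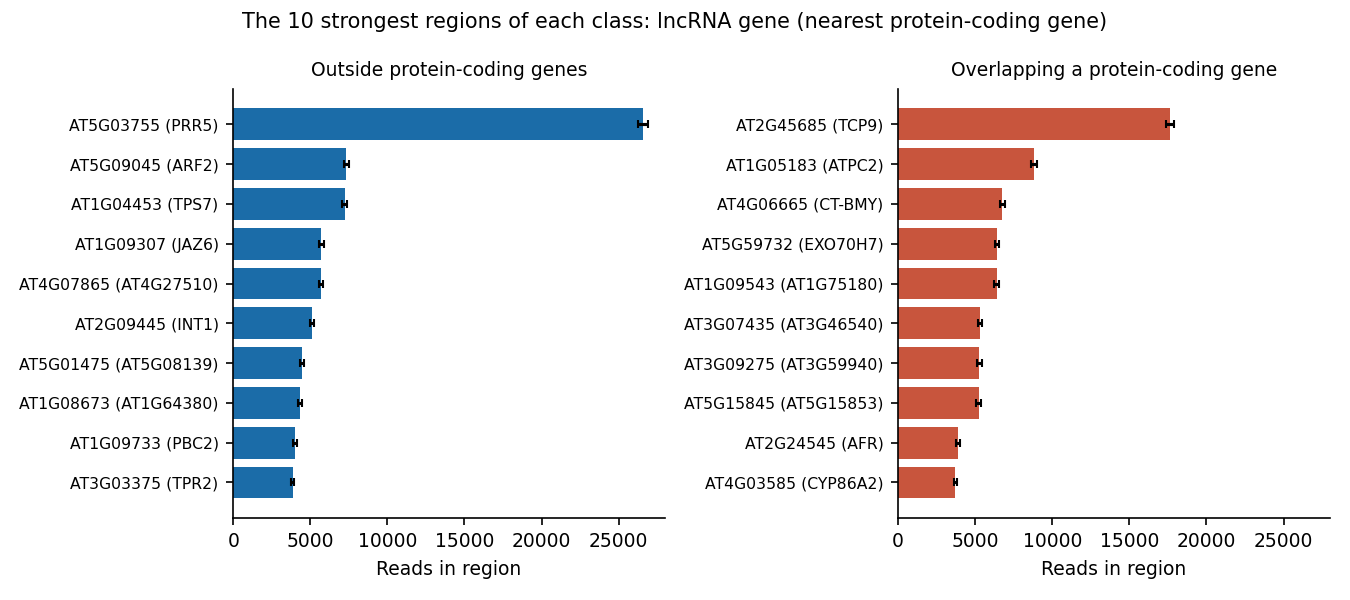
Reads in the 10 strongest members outside protein-coding genes (left) and overlapping one (right), with 95% Poisson intervals; each bar is named by its lncRNA gene with the nearest or overlapped protein-coding gene in brackets. AT5G03755 beside PRR5 (26570 reads) and AT2G45685 in TCP9 (17652 reads) stand apart from the other 9 of their class.

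Among members overlapping a protein-coding gene, 1 region again stood apart. AT2G45685, an lncRNA gene of 1680 bp that overlaps TCP9 (AT2G45680), held 17652 reads (17392.5 to 17914.4) at an FDR of 0, at chromosome 2 from 18820550 to 18820691. TCP9 encodes a transcription factor of the TCP family. The value was 2.00 times that of the second, AT1G05183, with 8823 reads (8639.8 to 9009.1) at chromosome 1 from 5402740 to 5402922. That region overlapped ATPC2 (AT1G15700), a gene of the gamma subunit of the chloroplast ATP synthase, and the lncRNA gene also overlaps AVP1 (AT1G15690), which encodes a vacuolar proton pump.

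AT4G06665 held 6769 reads (6608.7 to 6932.2) at chromosome 4 from 9606880 to 9607117, in CT-BMY (AT4G17090), the gene of a chloroplast beta-amylase that breaks down starch. AT5G59732 held 6418 reads (6261.9 to 6577.0) at chromosome 5 from 24064144 to 24064293, in EXO70H7 (AT5G59730), of the exocyst, with the small heat shock gene HSP18.2 (AT5G59720) within 1 kb. AT1G09543 held 6395 reads (6239.2 to 6553.7) at chromosome 1 from 28218477 to 28218611, in AT1G75180. The intervals of AT5G59732 and AT1G09543 overlapped, and that of AT4G06665 lay above both.

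AT3G07435 held 5318 reads (5176.0 to 5462.9) at chromosome 3 from 17135921 to 17136127, in AT3G46540 and within 1 kb of SOS5 (AT3G46550), which encodes a cell surface arabinogalactan protein. AT3G09275 held 5271 reads (5129.7 to 5415.3) at chromosome 3 from 22143962 to 22144095, in AT3G59940, an F-box gene with Kelch repeats. The intervals of these 2 overlapped each other and that of AT5G15845, described next with its flowering genes. AT2G24545 held 3903 reads (3781.5 to 4027.4) at chromosome 2 from 10426983 to 10427155, in AFR (AT2G24540), an F-box gene of far-red light signalling. AT4G03585 held 3714 reads (3595.5 to 3835.4) at chromosome 4 from 162100 to 162278, in CYP86A2 (AT4G00360), which encodes an enzyme of cutin synthesis. Many reads did not always go with a high rank by FDR in the whole list. AT4G06665 ranked at 381, AT1G05183 at 418, AT3G07435 at 432, AT2G24545 at 438, AT3G09275 at 564 and AT4G03585 at 951. AT2G45685, AT5G59732, AT1G09543 and AT5G15845 ranked at 3, 51, 96 and 164.

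Several members lay at flowering genes. AT5G15845, an lncRNA gene of 5211 bp, overlaps CO (AT5G15840), the photoperiodic activator of flowering, its relative COL1 (AT5G15850), AT5G15853 and PCME (AT5G15860). Its region held 5227 reads (5086.2 to 5370.7) at chromosome 5 from 5178167 to 5178311, in AT5G15853 and PCME and within 1 kb of COL1. A separate member in AT5G02465, within 500 bp of CO on chromosome 5 from 5169764 to 5169901, held 87 reads (69.7 to 107) at an FDR of 15.8%. AT5G01675, of 6230 bp, overlaps FLC (AT5G10140), the repressor of flowering that cold silences, and its region at chromosome 5 from 3179270 to 3179450 held 135 reads (113 to 159.8) at 18.0%. The reads of AT5G15845 were far above both, and the latter 2 did not reach an FDR of 5%. No member lay in AT1G69572, the other lncRNA gene looked up by locus.

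Within 3 kb of a member lay 1 of 35 clock genes (PRR5), 1 of 37 light genes and 4 of 37 flowering genes, beside 762 of 27432 protein-coding genes (2.78%). The light gene was PAR1 (AT2G42870), whose product restrains shade growth, with 2816 reads (2712.9 to 2922.0) in AT2G09405, 500 bp to 1 kb away, at chromosome 2 from 17838528 to 17838634. The flowering genes were CO, COL1 and FLC within 1 kb and COL5 (AT5G57660), 1 to 3 kb from a member of 2758 reads that lay in both AT5G08745 and AT5G08755. The shares were 2.86% of the clock list, 2.70% of the light list and 10.8% of the flowering list within 3 kb. Within 1 kb of a member lay 3 flowering genes (8.11%), beside 1.26% of all protein-coding genes. Of these 3, only COL1 had a member at an FDR of at most 5%, those at CO and FLC being at 15.8% and 18.0%. These counts are small and were not tested. When all 8983 regions were counted, 23 of the 35 clock genes, 24 of the light genes and 30 of the flowering genes had a region within 3 kb, beside 12810 of all protein-coding genes (46.7%).

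The weakest members had few reads. Outside protein-coding genes the fewest were 20 (12.2 to 30.9), in AT5G03565 near AT5G22960 and AT5G22970, at an FDR of 94.2%. Among overlapping members the fewest were 26 (17.0 to 38.1), in AT5G03735 and GMI1 (AT5G24280), at 55.9%. In all, 44 of 414 members had an FDR above 50%, beside 900 of the 8983 regions of the whole list. Of the 44, 36 were among the 308 members outside protein-coding genes, beside 492 of the 3757 other regions there.

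Forward and reverse reads, which the rule did not use, were balanced in most members. The median member had 50% forward reads, as had the whole list. An exact binomial test of equal strands, adjusted by Benjamini-Hochberg over all 8983 regions, called 8 of 414 members (1.93%), beside 0.935% of the whole list. The squared strand difference divided by the reads averaged 1.77 in members and 1.54 in the whole list, where independent reads with equal strands give 1. The spread is wider than the test assumes, so it may call regions too readily and its p-values may be too small. The source of the extra spread, and how it varies with the reads of a region, were not tested. The member beside PRR5 had 51.8% forward reads (adjusted exact p = 1.20e-05), and that in AT5G01475 had 46.1% (adjusted exact p = 3.04e-04). The widest gap among the 8 was in AT3G03805, 500 bp to 1 kb from FUT11 (AT3G19280), with 34 forward reads of 112 (30.4%, adjusted exact p = 0.0141). The other 5 lay in AT2G08990 (54.0%), AT3G08455 (45.9%), AT1G09577 beside the meristem receptor gene CLV1 (54.1%), AT4G06335 in RALFL33 (43.3%) and AT1G05183 in ATPC2 (51.9%, adjusted exact p = 0.0415).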

How the data were processed

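The 2 libraries (ChIP with an antibody against GFP, and input) were grouped by their antibody label, with 1 library in each. The deposited list gives read counts per region, which are not normalised and whose library the file headers do not name. It also gives the authors' false discovery rate in percent. TAIR9 was the reference, per the file headers. For the aligner, caller and library depth, nothing is given in the sources used here. The list holds 5112270 reads.

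Midpoints were placed in the 3480 lncRNA and 27432 protein-coding genes that RefSeq lists for TAIR10.1. Overlap meant at least 1 shared bp, and distances ran from midpoints. Space outside genes ran to the last annotated gene of each chromosome. Intervals are exact 95% Poisson (reads, densities), Clopper-Pearson (shares) or binomial order-statistic (medians) intervals and cover counting error only. Reads copied in PCR are not independent. Strand balance was tested per region (exact binomial, Benjamini-Hochberg over the list, threshold 0.05), and scripts were tested on simulated data. Python 3.11.15, scipy 1.17.1 and pandas 2.3.3 were used.

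Members and gene lists were chosen with earlier results of these data known. Genes named were those at the 10 members with the most reads in each class, at members whose lncRNA gene or nearest coding gene was in a list, and at the weakest member of each class; the CLV1, RALFL33, FUT11, TPL and COL5 members, the lncRNA genes with 2 regions and the others called by the strand test were chosen after their values were seen. Of the list names, all 35 clock, 37 light and 37 flowering genes were matched. The published lncRNA names planned for a further list were not matched by name, and 2 loci were looked up instead. The comparisons by density, distance, lncRNA gene length and position inside a gene were added once the values were known. No sequence was analysed here, and gene strand was not used, so positions are given from either end of a gene.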

Additional observations from a re-analysis of the deposited data

How the results depend on the processing

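No paired analysis was possible because each group had 1 library. Of 36 recomputed values of 6 results, 28 stayed within the interval of the reported value, or within 1.5 times it for counts. With the 4491 better-ranked regions, members fell to 237, the genes with a region fell to 260, the share at an FDR of at most 5% became 100% and the median reads 627; fewer and stronger regions give this by construction. The members' share of the list rose to 5.28% there, and the cause was not tested. With regions at 5% or less the median became 516.5 reads, also because fewer and stronger regions were kept. Members fell to 282 and the genes with a region to 309 there, drops that the tolerance of 1.5 times still counts as staying. Counting any overlap of a region with an lncRNA gene in place of its centre gave 5.28%, and all noncoding RNA genes gave 5.93%, since both widen the rule. No overlapping regions were found to merge, so the values under that alternative could not move, though they are counted among the 28. The share overlapping a protein-coding gene stayed between 23.1% and 29.8% under all 7 alternatives. Depth limits the weak members most: at 20 reads the interval runs from 12.2 to 30.9.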
